A study of Rattus norvegicus with 12 samples.

Results

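The Wnt ligands, their receptors and their secreted antagonists were followed in left ventricular RNA from 12 male Wistar rats. The members were chosen with earlier results of these data known, so no test was run over the list. A rule on gene names picked them: the numbered Wnt, Fzd, Sfrp, Dkk and Rspo genes, Axin1 and Axin2, and Frzb, Wif1, Lrp5, Lrp6, Lef1, Tcf7, Tcf7l1 and Tcf7l2. This rule found 49 of the 30560 genes in the count table, made up of 19 Wnt ligands, 11 frizzled and Lrp receptors, 9 secreted antagonists, 4 R-spondins and 6 genes of the Axin and TCF/LEF group. Of these, 39 had at least 10 counts in total and were tested, and 10 fell under that minimum.

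The study asked how urolithin A (UA), a metabolite that gut bacteria make from plant ellagitannins and that induces mitophagy, acts on the failing heart. Surgery was done at 7 weeks of age on outbred rats. Sham rats had the chest opened and closed without ligation and then received vehicle. MI rats had a lasting ligation of the left anterior descending coronary artery, which causes a myocardial infarction, followed by the same vehicle. MI + UA rats had the same ligation and received UA by oral gavage over 8 weeks. The vehicle was a carboxymethylcellulose solution. The dose and the first day of treatment are stated differently in the results and in the methods of the study, so neither is given here. Each group had 4 rats with 1 library each. Rat 66 is labelled as an MI + UA rat but stands among the vehicle-treated MI rats in the echocardiography records, and it was counted by its label. RNA came from formalin-fixed, paraffin-embedded sections of the middle of the left ventricle, and how much infarcted, bordering and remote muscle the sections of ligated hearts held is not given.

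Between 6228706 and 19031695 reads per library fell on genes, and 50.2% to 58.6% of them on the mitochondrially encoded genes. At these depths a floor of 3 counts corresponds to between 0.169 and 0.505 CPM (the counts of a gene relative to the scaled library size). The 8 cardiomyocyte markers summed to 44540 to 50560 CPM in Sham, 30890 to 36670 CPM in MI and 32580 to 43590 CPM in MI + UA, so the markers of the labelled tissue were present in all libraries. All 8 were lower in MI than in Sham by the test described for the members. The 8 fibroblast markers summed to 1127 to 1439 CPM in Sham, 2188 to 3574 CPM in MI and 2205 to 3685 CPM in MI + UA, and 6 of the 8 were higher in MI. The 7 macrophage markers summed to 75.9 to 90.5 CPM in Sham and 138 to 184 CPM in MI, with 6 of 7 higher. Of the other marker lists, 4 of 6 smooth muscle and pericyte, 4 of 5 cartilage and bone and 1 of 4 Schwann cell genes were higher in MI, 1 of 5 endothelial genes was lower, and 0 of 3 mesothelial, 0 of 2 adipocyte and 0 of 4 T and B cell genes passed. Of all genes, 5.82% were higher and 5.53% lower in MI. The 5 cartilage and bone markers summed to 69.2 CPM in MI rat 36, against 35.9 to 42.7 CPM in the other MI rats. The 4 Schwann cell markers summed to 58.3 CPM in MI + UA rat 58, against 19.2 to 26.3 CPM in the other MI + UA rats. The adipocyte markers summed to 3.51 CPM in MI rat 36 and 0 to 0.326 CPM in the other MI rats. In whole-tissue RNA, fewer cells of a type and less RNA per cell cannot be told apart.

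Wnt proteins are secreted, lipid-modified ligands that bind frizzled receptors. With the co-receptors Lrp5 or Lrp6, they spare β-catenin from the destruction complex built on Axin, and β-catenin then acts with TCF/LEF factors on target genes. Other ligands, Wnt5a among them, act mainly without β-catenin on cell shape, polarity and calcium. Secreted frizzled-related proteins, Frzb and Wif1 bind the ligands themselves, most Dickkopf proteins occupy Lrp5 and Lrp6, and R-spondins raise receptor levels. In the adult heart the pathway is quiet and is known to be engaged again after injury, with fibroblasts among the cells that make frizzled-related proteins.

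The upstream sequences of 4 members are shown because 3 of them, Sfrp2, Frzb and Fzd7, passed the test in MI versus Sham, and the fourth, Axin2, is the textbook transcriptional target of β-catenin. RefSeq gives a start site sequence for 33 of the 49 members on the rat build GRCr8. Both strands of the 250 bases before each start were searched for the TCF/LEF letters CTTTGAT, the TEAD letters GGAATG, the AP-1 letters TGACTCA and the TATA letters TATAAA, and capitals mark a match.
Axin2, chr10:94398535-94398784, plus strand: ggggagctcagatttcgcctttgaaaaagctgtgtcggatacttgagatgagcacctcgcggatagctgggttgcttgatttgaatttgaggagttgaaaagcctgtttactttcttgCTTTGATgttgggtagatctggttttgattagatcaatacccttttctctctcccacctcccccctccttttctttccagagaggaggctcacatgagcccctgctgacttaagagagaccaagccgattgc
Sfrp2, chr2:171387286-171387535, plus strand: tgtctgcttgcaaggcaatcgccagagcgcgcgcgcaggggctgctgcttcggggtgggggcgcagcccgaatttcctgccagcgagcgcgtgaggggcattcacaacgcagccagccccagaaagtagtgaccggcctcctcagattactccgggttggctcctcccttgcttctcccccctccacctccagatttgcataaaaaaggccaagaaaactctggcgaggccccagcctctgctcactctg
Frzb, chr3:85772097-85772346, minus strand: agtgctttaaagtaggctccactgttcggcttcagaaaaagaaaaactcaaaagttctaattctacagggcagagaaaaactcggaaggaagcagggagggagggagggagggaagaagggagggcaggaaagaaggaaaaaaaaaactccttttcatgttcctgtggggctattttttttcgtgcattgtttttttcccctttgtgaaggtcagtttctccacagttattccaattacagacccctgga
Fzd7, chr9:68425288-68425537, plus strand: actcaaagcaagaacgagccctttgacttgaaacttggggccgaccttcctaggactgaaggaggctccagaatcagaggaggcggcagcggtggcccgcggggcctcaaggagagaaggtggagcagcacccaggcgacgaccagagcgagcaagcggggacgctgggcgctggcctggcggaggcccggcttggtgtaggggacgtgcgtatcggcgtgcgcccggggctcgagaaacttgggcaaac
The TCF/LEF letters occurred in Axin2 alone among the 33 member promoters (3.03%), against 3.15% of all 33469 promoters. The AP-1 letters occurred in the promoters of Lef1 and Wnt16, or 6.06% against 4.05% of all promoters, and the TEAD and TATA letters occurred in 0 of the 33, against 12.1% and 12.9%. The dinucleotide CG occurred 15 times before Sfrp2, 21 times before Fzd7 and 5 times before Axin2, but 3 times before Frzb. Its median was 22 over the 33 member promoters and 5 over all promoters.

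Between MI and Sham, 9 of the 39 members tested passed an adjusted p-value of 0.05 in edgeR's quasi-likelihood test, or 23.1%, against 11.4% of all 18182 genes tested. Higher in MI were 8 of them, where 5.82% of all genes were higher: the antagonists Sfrp1, Sfrp2, Sfrp4, Frzb and Dkk3 and the receptors Fzd2, Fzd7 and Fzd8. Lower in MI was 1, the ligand Wnt5a, where 5.53% of all genes were lower. The median log2 fold change was 0.28 over the 39 members and 0.03 over all genes tested. The groups did not overlap at 6 members on the higher side (Dkk3, Frzb, Sfrp1, Sfrp2, Fzd2 and Fzd7), against 8.12% of all genes. They did not overlap at 4 on the lower side (Fzd6, Lrp5, Wnt5a and Wnt5b), against 7.56% of all genes, and 15.7% of all genes did not overlap in either direction.

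**Figure D1:**
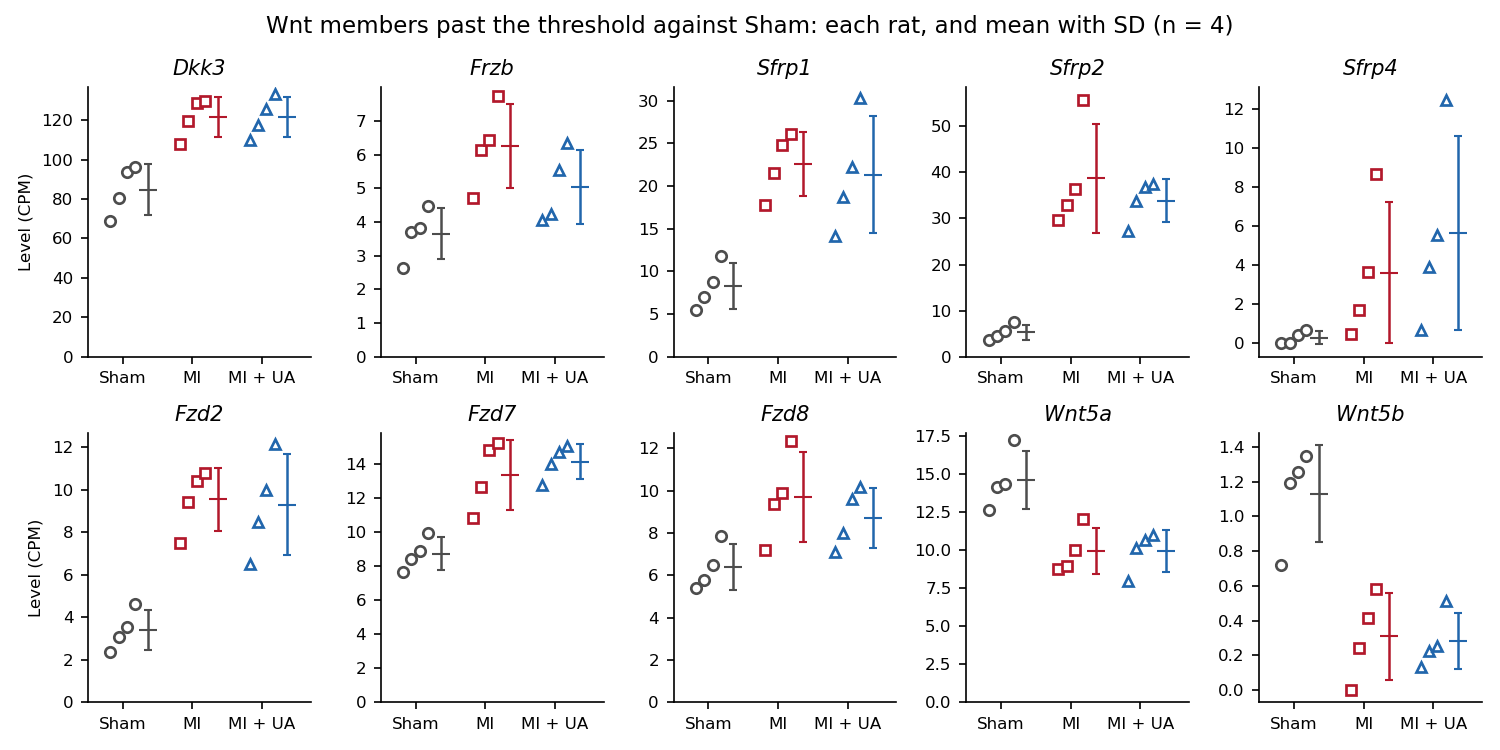
CPM of the 10 Wnt members with an adjusted p-value under 0.05 against Sham, in MI, in MI + UA or in both; each symbol is 1 rat, and the line with bars beside the symbols gives the mean and SD of 4 rats. Sfrp2 stood between 3.70 and 7.50 CPM in Sham and between 27.3 and 55.8 CPM in the 8 ligated rats, while Wnt5a and Wnt5b stood lower in every ligated rat than in any Sham rat.

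Of the 8 members that were higher after infarction, 5 were secreted antagonists. All 9 had a log2 fold change above 0 in MI versus Sham, with a median of 0.80, and 5 of the 9 passed the test, all on the higher side, where 5.82% of all genes passed. Their summed level went from 84.7 to 118 CPM in Sham to 187 to 211 CPM in MI, and it was 167 to 225 CPM in MI + UA. Fibroblast markers rose in the same rats (above), and their part in these results was not tested.

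Sfrp2 (ENSRNOG00000009465), a frizzled-related protein of fibroblasts and healing wounds, had the smallest p-value of the members. Its level was 4.39, 7.50, 5.55 and 3.70 CPM in Sham rats 12, 17, 32 and 38. In MI rats 36, 57, 61 and 89 it was 36.3, 29.6, 32.9 and 55.8 CPM. Every MI rat stood above every Sham rat by a wide gap, and rat 89 was the highest of the MI rats. The mean rose from 5.29 ± 1.67 CPM (SD, n = 4) in Sham rats to 38.7 ± 11.8 CPM (SD, n = 4), a log2 fold change of 2.90 (SE 0.21, edgeR adjusted p = 3.21e-08).

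Sfrp1 (ENSRNOG00000017783) encodes a related protein that binds Wnt ligands and frizzled receptors. It was at 5.52, 8.80, 11.8 and 7.03 CPM in Sham rats 12, 17, 32 and 38 and at 17.8, 24.8, 21.6 and 26.1 CPM in MI rats 36, 57, 61 and 89. The groups did not overlap, and the log2 fold change was 1.47 (SE 0.22, edgeR adjusted p = 0.000182).

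Sfrp4 (ENSRNOG00000054957), a frizzled-related protein also known from bone and fat, was close to the limit of detection in Sham. It had 0 counts in Sham rats 12 and 38, 3 in rat 17 and 4 in rat 32. In MI it was at 1.68 CPM in rat 36, 0.47 CPM in rat 57, 3.63 CPM in rat 61 and 8.64 CPM in rat 89. Rat 57, with 3 counts, lay within the range of the Sham rats, so the groups overlapped. The log2 fold change was 3.90 (SE 1.06, edgeR adjusted p = 0.0191), on 7 counts in all Sham rats together. The call was lost without MI rat 89, Sham rat 38 or Sham rat 12 (log2 fold changes 2.99, 3.44 and 3.46, edgeR adjusted p = 0.0919, 0.0741 and 0.0698). Sfrp4 shares its locus with Nme8 in the RefSeq annotation, and reads of the pair may not be separable.

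Frzb (ENSRNOG00000007765), the antagonist first found in cartilage, was at 2.63, 4.47, 3.70 and 3.82 CPM in Sham rats 12, 17, 32 and 38 and at 6.14, 4.70, 6.44 and 7.74 CPM in MI rats 36, 57, 61 and 89. The groups did not overlap, though the lowest MI rat lay close to the highest Sham rat. Its log2 fold change was 0.80 (SE 0.22, edgeR adjusted p = 0.0211), and the call was lost without MI rat 89 (edgeR adjusted p = 0.0854) and without Sham rat 12 (edgeR adjusted p = 0.0762). With rat 66 counted as an MI rat it was lost too (log2 fold change 0.67, edgeR adjusted p = 0.0592). Without MI rat 36, in which the summed cartilage and bone markers were highest, the log2 fold change was 0.81 (edgeR adjusted p = 0.0359). The summed markers also stood higher in the other MI rats, at 35.9 to 42.7 CPM, than in Sham, at 16.6 to 20.9 CPM. Their part in the Frzb result was not tested.

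Dkk3 (ENSRNOG00000016343), a divergent Dickkopf protein that does not bind Lrp6 as its relatives do, was at 68.8, 80.4, 93.8 and 96.2 CPM in Sham rats 12, 17, 32 and 38. It was at 119.5, 129.8, 128.7 and 107.7 CPM in MI rats 36, 57, 61 and 89, again without overlap. Its log2 fold change of 0.52 (SE 0.10, edgeR adjusted p = 0.00205) was small beside those of Sfrp1 and Sfrp2. The other 4 antagonists, Dkk2, Dkk4, Sfrp5 and Wif1, did not pass the test, with log2 fold changes from 0.30 to 1.02. They were measured on few reads, 35 to 191 counts over all 12 libraries.

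The make-up of the antagonist counts within each library, which does not depend on scaling between libraries, was compared as well. No share passed after adjustment, but with 4 rats against 4 that required most of the 15 shares to reach the smallest possible p. The adjusted values therefore cannot decide whether a share differed. Shares were compared between rats and not between genes, since longer transcripts give more reads. Of the counts of the 9 antagonists, Dkk3 took 80.4% ± 3.62 (SD, n = 4) in Sham rats. After ligation it took 61.8% ± 7.21 (SD, n = 4). Sfrp2 took 5.06% ± 1.59 (SD, n = 4) in Sham rats, and after ligation its share was 19.5% ± 4.99 (SD, n = 4). For both, no MI rat overlapped a Sham rat, with a two-sided exact permutation p = 0.0286, the smallest that 4 rats against 4 allow, and p = 0.107 after adjustment over the 15 shares compared. Sfrp1 went from 7.76% to 11.4% (exact permutation p = 0.0571, adjusted 0.161), and the shares of Frzb and Sfrp4 differed with exact permutation p of 0.514 and 0.0857. With Dkk3 left out of the sum, the difference between MI and Sham was -9.15 percentage points for Sfrp1 (exact permutation p = 0.114, adjusted 0.196) and -9.54 for Frzb (exact permutation p = 0.0286, adjusted 0.0686).

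**Figure D2:**
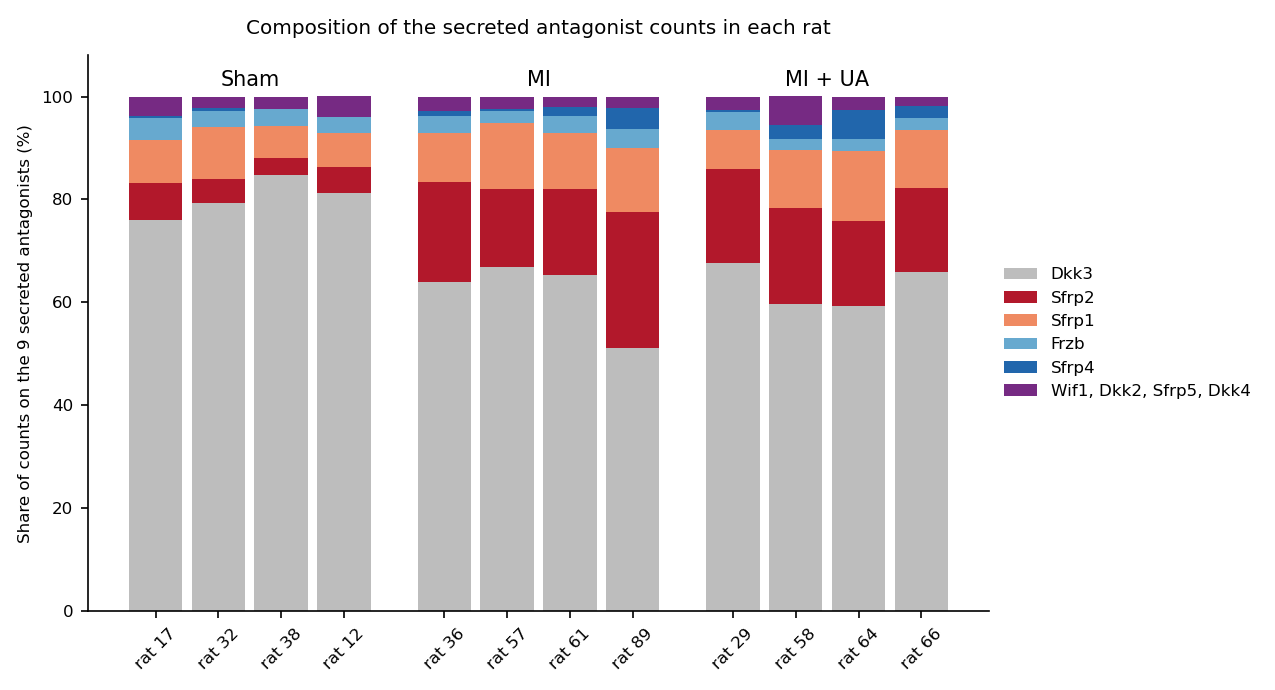
Share of each secreted antagonist in the counts of all 9, in percent, with 1 bar per rat grouped as Sham, MI and MI + UA. Dkk3 filled 76.1% to 84.8% of the bar in Sham and 51.1% to 66.8% in MI, and Sfrp2 went from 3.26% to 7.10% in Sham to 15.3% to 26.5% in MI.

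Among the receptors, frizzled genes moved in part and the Lrp co-receptors did not pass the test. Of the 10 receptors tested, 3 were higher in MI and 0 were lower, where 5.82% and 5.53% of all genes were, and the median log2 fold change was 0.27. Fzd10 had 0 counts in all libraries.

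Fzd2 (ENSRNOG00000021962), a receptor through which Wnt5a can act, rose the most of these. It was at 2.38, 4.62, 3.54 and 3.10 CPM in Sham rats 12, 17, 32 and 38 and at 10.8, 7.53, 9.45 and 10.4 CPM in MI rats 36, 57, 61 and 89. The groups stood well apart, with a log2 fold change of 1.52 (SE 0.22, edgeR adjusted p = 0.00013).

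Fzd7 (ENSRNOG00000016119), a close relative of Fzd2, was at 7.65, 9.96, 8.92 and 8.47 CPM in Sham rats 12, 17, 32 and 38 and at 14.8, 10.8, 12.7 and 15.2 CPM in MI rats 36, 57, 61 and 89. The groups did not overlap, although rat 57 lay near the Sham rats. Its log2 fold change was 0.63 (SE 0.14, edgeR adjusted p = 0.00424). Fzd2 and Fzd7 are single-exon genes of similar coding sequence, and how reads that fit both were counted was not examined.

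Fzd8 (ENSRNOG00000069521) was at 5.77, 6.50, 5.39 and 7.87 CPM in Sham rats 12, 17, 32 and 38 and at 9.87, 7.21, 12.4 and 9.37 CPM in MI rats 36, 57, 61 and 89. Rat 57 lay below the highest Sham rat, so the groups overlapped. Its log2 fold change of 0.61 (SE 0.18, edgeR adjusted p = 0.0344) kept its call in 12 of the 20 other settings tried, with edgeR or DESeq2 adjusted p from 0.0138 to 0.134. It was lost without any 1 of Sham rats 12, 17 and 32 and MI rats 36, 61 and 89, without rats 36 and 58 together, and with rat 66 counted as an MI rat.

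The remaining receptors did not pass the test. Lrp6 (ENSRNOG00000006338), the main co-receptor of the β-catenin branch, was at 34.7 to 46.7 CPM in Sham and 44.1 to 51.2 CPM in MI, with a log2 fold change of 0.26 (SE 0.09, edgeR adjusted p = 0.0823), and it passed without Sham rat 12 (0.35, edgeR adjusted p = 0.02) and with rat 66 counted as an MI rat (0.28, edgeR adjusted p = 0.0493). Lrp5 (ENSRNOG00000015911) was at 53.1 to 61.8 CPM in Sham and 46.4 to 51.9 CPM in MI, without overlap and with a log2 fold change of -0.21 (SE 0.09, edgeR adjusted p = 0.144). The pair of co-receptors thus had estimates of opposite sign, neither past the threshold. Fzd4 (ENSRNOG00000063590), known as the Norrin receptor of vessels, was at 35.2 to 47.5 CPM in Sham and 36.7 to 61.3 CPM in MI, with a log2 fold change of 0.28 (SE 0.14, edgeR adjusted p = 0.214). Without MI rat 36, the lowest of the MI rats, it passed the test (log2 fold change 0.42, edgeR adjusted p = 0.0314). The other 4, Fzd3, Fzd5, Fzd6 and Fzd9, had log2 fold changes from -0.20 to 0.74.

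**Figure D3:**
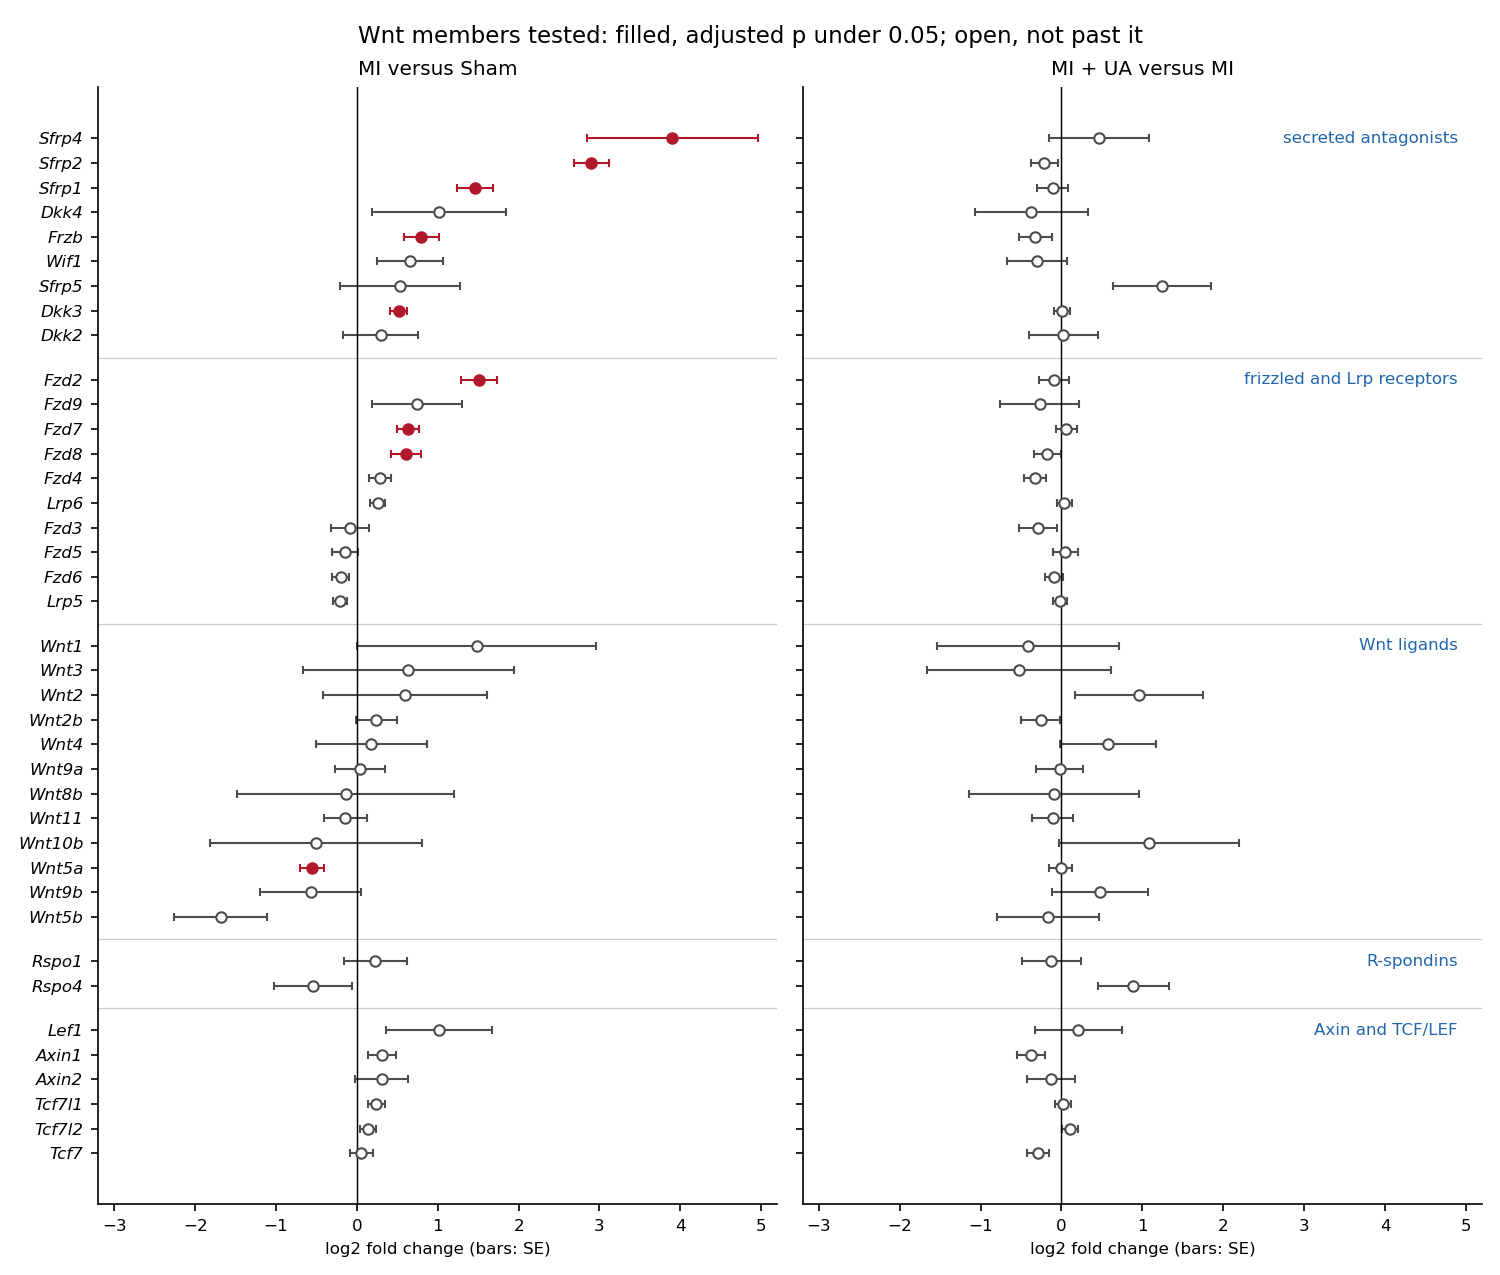
log2 fold change of the 39 Wnt members tested, with bars of 1 SE, in MI versus Sham (left) and MI + UA versus MI (right), grouped by role. Filled points passed an adjusted p-value of 0.05 in edgeR's test: 9 in MI versus Sham and 0 in MI + UA versus MI, where the points ranged from -0.53 to 1.25.

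Of the 19 ligands, 12 could be tested, and Wnt5a was the 1 that passed, on the lower side. This is 8.33% of the ligands tested, near the 11.4% of all genes that passed in either direction. The median log2 fold change of the 12 was -0.05. Together the ligands summed to 23.0 to 32.1 CPM in Sham and 20.7 to 23.6 CPM in MI. Wnt5a made up 52.4% to 54.9% of that sum in Sham and 37.2% to 53.0% in MI.

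Wnt5a (ENSRNOG00000015618), the main ligand of the branch without β-catenin, was at 17.2, 14.1, 14.3 and 12.6 CPM in Sham rats 12, 17, 32 and 38. In MI rats 36, 57, 61 and 89 it was at 8.77, 8.94, 12.04 and 10.02 CPM. All MI rats lay below all Sham rats, by a log2 fold change of -0.55 (SE 0.15, edgeR adjusted p = 0.0178). The call was lost without Sham rat 12, the highest, and without MI rat 36, the lowest (edgeR adjusted p = 0.0719 and 0.0575), and without rats 36 and 58 together (edgeR adjusted p = 0.0502).

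Wnt5b (ENSRNOG00000008168), its close paralog, had few reads. It had 10, 5, 8 and 10 counts in Sham rats 12, 17, 32 and 38 (0.72 to 1.35 CPM) and 8, 0, 4 and 3 counts in MI rats 36, 57, 61 and 89 (0 to 0.58 CPM). The groups did not overlap in CPM, and the log2 fold change of -1.68 (SE 0.58, edgeR adjusted p = 0.0657) did not pass the test. It did without MI rat 36, at -2.16 (edgeR adjusted p = 0.0455), and with rat 66 counted as an MI rat, at -1.81 (edgeR adjusted p = 0.0351). Wnt5b overlaps Fbxl14 in the RefSeq annotation.

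Wnt2b (ENSRNOG00000014385), a ligand of the β-catenin branch, had a log2 fold change of 0.24 (SE 0.25, edgeR adjusted p = 0.622), with 3.03 to 5.90 CPM in Sham and 3.63 to 6.58 CPM in MI. The other 9 ligands tested, Wnt1, Wnt2, Wnt3, Wnt4, Wnt8b, Wnt9a, Wnt9b, Wnt10b and Wnt11, had log2 fold changes from -0.57 to 1.48 and adjusted p-values of 0.609 or more. Their standard errors reached 1.48 at the ligands with the fewest reads. Under the count minimum were 7 ligands. Wnt3a, Wnt7a and Wnt8a had 0 counts in every library, and Wnt6, Wnt7b, Wnt10a and Wnt16 had 1 to 5 counts over all 12, so a difference was not detectable at this depth.

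R-spondins, which raise the number of receptors on the cell, were scarce. Rspo1 (ENSRNOG00000009656) was at 0.58 to 1.79 CPM in Sham and 0.80 to 1.71 CPM in MI, with a log2 fold change of 0.23 (SE 0.39, edgeR adjusted p = 0.793). Rspo4 (ENSRNOG00000009662) was at 0.38 to 1.52 CPM in Sham and 0.31 to 0.90 CPM in MI, with a log2 fold change of -0.54 (SE 0.48, edgeR adjusted p = 0.553). Rspo2 and Rspo3 had 2 and 4 counts in all, under the minimum for a test.

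In the Axin and TCF/LEF group, 0 of 6 members passed the test in MI versus Sham and 1 had an unadjusted p-value under 0.05, where 23.9% of all genes did. All 6 estimates were above 0, with a median of 0.275. Tcf7l2 (ENSRNOG00000049232) was at 43.0 to 56.5 CPM in Sham and 45.2 to 59.7 CPM in MI, with a log2 fold change of 0.14 (SE 0.10, edgeR adjusted p = 0.428). Tcf7l1 (ENSRNOG00000014753), which mostly represses targets, was at 25.7 to 36.4 CPM in Sham and 35.1 to 40.0 CPM in MI, with a log2 fold change of 0.24 (SE 0.10, edgeR adjusted p = 0.145). Axin2 (ENSRNOG00000055010), the feedback target whose upstream sequence holds the TCF/LEF letters, was at 1.00 to 2.31 CPM in Sham and 1.25 to 2.49 CPM in MI, with a log2 fold change of 0.31 (SE 0.32, edgeR adjusted p = 0.634). Axin1 (ENSRNOG00000062714), the scaffold of the destruction complex, was at 7.28 to 7.99 CPM in Sham and 7.97 to 11.3 CPM in MI, with a log2 fold change of 0.31 (SE 0.18, edgeR adjusted p = 0.308).

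No member passed the threshold between the rats given UA and the rats given vehicle after ligation. Between MI + UA and MI, 0 of the 39 members passed edgeR's test, and the smallest adjusted p-value was 0.9997. In this comparison 0.0% of all 18182 genes passed, and DESeq2 also called 0 members. An unadjusted p-value under 0.05 was reached by 2 members, or 5.13%, against 3.79% of all genes. The median log2 fold change was -0.09 over the members and 0.005 over all genes tested.

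Of these 2 members, Fzd4 was at 44.2, 43.9, 38.03 and 34.9 CPM in MI + UA rats 29, 58, 64 and 66, against 36.7, 58.2, 61.3 and 47.6 CPM in MI rats 36, 57, 61 and 89. All MI + UA rats lay below 3 of the MI rats and overlapped rat 36, with a log2 fold change of -0.33 (SE 0.14, unadjusted p = 0.023 in edgeR's test). Axin1 was at 8.63, 5.14, 9.07 and 6.19 CPM in MI + UA rats 29, 58, 64 and 66, against 7.97, 11.3, 9.76 and 9.21 CPM in MI rats 36, 57, 61 and 89. Its log2 fold change was -0.38 (SE 0.17, unadjusted p = 0.0366 in edgeR's test), and the groups overlapped. Rspo4 was the 1 member whose groups did not overlap, where 1.18% of all genes did so on the higher side, 1.16% on the lower side and 2.34% in either direction. It was at 1.03 to 1.35 CPM in MI + UA, on 8 to 22 counts per library, against 0.31 to 0.90 CPM in MI, with a log2 fold change of 0.89 (SE 0.44, unadjusted p = 0.0556 in edgeR's test).

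The 9 members that passed in MI versus Sham are given next in the rats that received UA. Sfrp2 was at 33.9, 36.9, 37.5 and 27.3 CPM in MI + UA rats 29, 58, 64 and 66, inside or just under the range of the MI rats, with a log2 fold change of -0.21 (SE 0.17) in MI + UA versus MI. Sfrp1 was at 14.1, 22.2, 30.3 and 18.7 CPM in these rats (log2 fold change -0.11, SE 0.20). Sfrp4 spread from 0.69 CPM in rat 29 to 12.5 CPM in rat 64, as widely as in MI (log2 fold change 0.46, SE 0.62). The log2 fold change was -0.32 (SE 0.20) for Frzb, -0.18 (SE 0.17) for Fzd8, -0.09 (SE 0.19) for Fzd2, 0.06 (SE 0.13) for Fzd7 and 0.003 (SE 0.10) for Dkk3. Wnt5a, the member that fell with infarction, was at 7.94, 10.7, 10.2 and 10.97 CPM in MI + UA rats 29, 58, 64 and 66 and had a log2 fold change of -0.01 (SE 0.15). Sfrp5, chosen after its values were seen, was at 8.48 CPM in MI + UA rat 58 and at 0.50 to 2.30 CPM in the 11 others, so that 1 library set its log2 fold change of 1.25 (SE 0.61). The summed Schwann cell markers were highest in the same library, and their part in this value was not tested.

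The MI + UA rats were also set against Sham. This comparison and that of MI with Sham share the Sham rats and are not independent. Past the threshold were 8 of 39 members, 20.5% against 9.44% of all genes, with 6 higher (5.16% of all genes) and 2 lower (4.27% of all genes). The log2 fold change in MI + UA versus Sham was 2.69 for Sfrp2 (SE 0.21, edgeR adjusted p = 8.91e-08), 1.36 for Sfrp1 (SE 0.22, edgeR adjusted p = 0.000512) and 4.36 for Sfrp4 (SE 1.03, edgeR adjusted p = 0.00902). It was 0.52 for Dkk3 (edgeR adjusted p = 0.00245), 1.43 for Fzd2 (edgeR adjusted p = 0.000336) and 0.69 for Fzd7 (edgeR adjusted p = 0.00249). On the lower side were Wnt5a, at -0.56 (SE 0.15, edgeR adjusted p = 0.0175), and Wnt5b, at -1.84 (SE 0.57, edgeR adjusted p = 0.0468), with 9, 2, 1 and 4 counts in rats 29, 58, 64 and 66. Wnt5a lost this call without MI + UA rat 29 or Sham rat 12 (edgeR adjusted p = 0.0815 and 0.0694). Wnt5b kept it in 8 of 19 other settings and lost it without any 1 of the Sham rats, of MI + UA rats 58, 64 and 66, or of MI rats 61 and 89, without rats 36 and 58 together, and with rat 66 counted as an MI rat (edgeR adjusted p up to 0.109). Frzb and Fzd8, which passed in MI versus Sham, did not pass here (log2 fold changes 0.47 and 0.43, edgeR adjusted p = 0.215 and 0.161). Their difference between MI + UA and MI, given above, did not pass either. The groups did not overlap at 7 members on the higher side, against 7.83% of all genes, and at 4 on the lower side, against 6.46%. Lrp6 did not pass, with a log2 fold change of 0.30 (SE 0.09, edgeR adjusted p = 0.0509). It passed in 4 of 20 other settings, namely DESeq2 (adjusted p = 0.0345 in DESeq2), the stricter count filter (edgeR adjusted p = 0.0387) and without MI rat 57 or Sham rat 12 (edgeR adjusted p = 0.046 and 0.0128).

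Beyond the members, other genes of the pathway were counted from a list of secretion factors, glypicans, further receptors and inhibitors, polarity genes and the cytoplasmic and nuclear machinery. Of 66 tested, 11 passed in MI versus Sham, or 16.7% against 11.4% of all genes, with 7 higher and 4 lower. The log2 fold changes of the 66 had a median of 0.03, as did all genes tested. The count fell to 6 without Sham rat 32 or Sham rat 38 and to 7 without MI rat 89, and the share of all genes that passed was then 8.36%, 8.29% and 8.6%. By step of the pathway, 5 of 21 cytoplasmic genes, 3 of 6 other extracellular inhibitors, 1 of 13 nuclear genes, 1 of 3 glypicans, 1 of 5 R-spondin receptors and ligases, 0 of 3 secretion genes and 0 of 5 other receptors passed. Of the genes around β-catenin, 3 chosen after their values were seen did not pass. Ctnnb1, which encodes β-catenin, had a log2 fold change of -0.10 (SE 0.08, edgeR adjusted p = 0.439), Gsk3b of 0.01 (SE 0.08, edgeR adjusted p = 0.974) and Apc of 0.05 (SE 0.07, edgeR adjusted p = 0.729). Among the genes that rose were Apcdd1, a membrane-bound Wnt inhibitor, at 1.28 (edgeR adjusted p = 0.00194), Igfbp4, an IGF-binding protein that also blocks Wnt receptors, at 1.24 (edgeR adjusted p = 0.00273), Dact3, a Dishevelled antagonist, at 0.95 (edgeR adjusted p = 0.00449) and Nkd1, another, at 0.91 (edgeR adjusted p = 0.0159). The co-repressor Tle3 rose by 0.61 (edgeR adjusted p = 0.00639) and the glypican Gpc6 by 0.44 (edgeR adjusted p = 0.0143) on the log2 scale. Lower were, among others, Cxxc4, a Dishevelled inhibitor, at -0.70 (edgeR adjusted p = 0.0325), and Lgr6, an R-spondin receptor, at -0.37 (edgeR adjusted p = 0.0289). Tmem88, a membrane protein counted among the other extracellular inhibitors, was that list's 1 gene on the lower side. Chosen after its values were seen, it was at -0.46 (edgeR adjusted p = 0.0404). Of the 10 polarity genes tested, 0 passed, and 3 had an unadjusted p-value under 0.05, where 23.9% of all genes did.

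**Figure D4:**
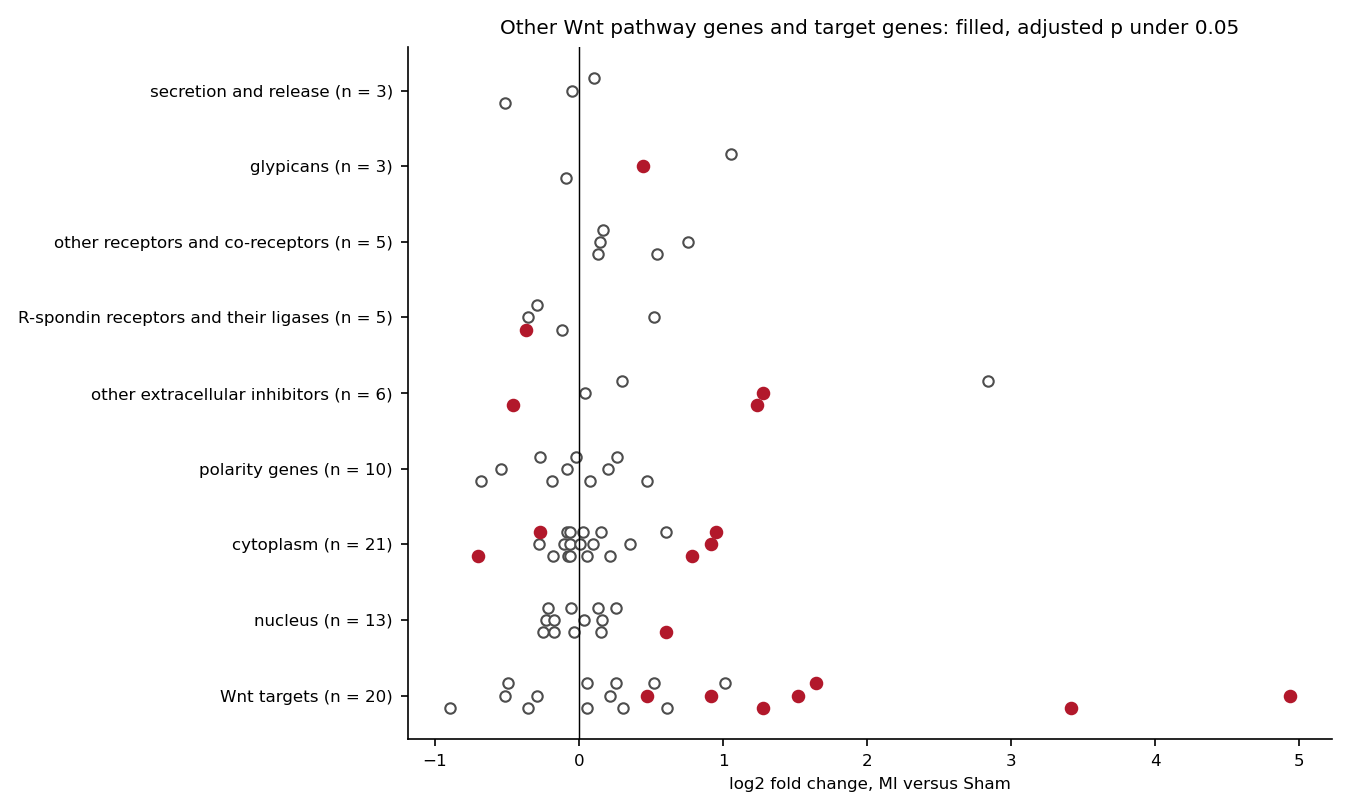
log2 fold change in MI versus Sham of the 66 other Wnt pathway genes tested, by step of the pathway, and of 20 target genes; each point is 1 gene, and filled points passed an adjusted p-value of 0.05 in edgeR's test. The other pathway genes centred near 0, with 11 filled, while 7 of the 20 target genes were filled, all on the higher side.

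Among 20 tested genes known as targets of β-catenin and TCF/LEF factors in other tissues, 7 were higher in MI and 0 lower, where 5.82% and 5.53% of all genes were. The median log2 fold change of the 20 was 0.39, and the count fell to 4 without Sham rat 38. Of the 20, 7 are also on the list of other pathway genes (Apcdd1, Lgr5, Nkd1, Nkd2, Notum, Rnf43 and Znrf3) and 3 are members (Axin2, Lef1 and Tcf7), so the counts are not separate. Ccn5, a matrix-associated protein, was at 0.14 to 1.18 CPM in Sham and 12.7 to 22.3 CPM in MI, with a log2 fold change of 4.94 (SE 0.35, edgeR adjusted p = 2.45e-08). Ccn4, its relative first described as a Wnt-induced gene, had a log2 fold change of 3.42 (SE 0.77, edgeR adjusted p = 0.00539), and Fst, which encodes the activin inhibitor follistatin, had 1.64 (edgeR adjusted p = 0.0113). The growth genes Myc and Ccnd1 had log2 fold changes of 1.52 (edgeR adjusted p = 0.00314) and 0.47 (edgeR adjusted p = 0.0312). Fibroblast markers rose in the same rats, and their part in these counts was not tested. Between MI + UA and MI, 0 of the 66 pathway genes and 0 of the 20 targets passed. Of the targets, 1 had an unadjusted p-value under 0.05 in that comparison, Myc, with a log2 fold change of -0.75 (unadjusted p = 0.0153 in edgeR's test), and 0 of the pathway genes did, where 3.79% of all genes did.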

How the data were processed

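The authors aligned the reads with STAR 2.6.1c to the rat build mRatBN7.2 with Ensembl annotation, counted them per gene with htseq-count (HTSeq) and summarised quality with MultiQC 1.8, per the submitters' processing notes and the study's methods. The deposited values are raw counts per gene and rat, not normalised. Libraries were made from fixed sections with a strand-specific kit after ribosomal depletion, although the labels name polyA RNA, and the strand setting of the counting is not given in the sources used here. A further MI + UA library, left out by the authors, is not used here. The 5 summary lines of the counting, 51.7% to 57.1% of counted reads, stayed out of library sizes and tests, and 0 sample columns were unused.

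A gene was tested if its counts summed to 10 or more. Libraries were TMM-scaled, and edgeR 4.0.16 (limma 3.58.1, R 4.3.3) fitted all 12 rats together and gave quasi-likelihood tests. p-values were Benjamini-Hochberg adjusted over all 18182 genes tested, with a threshold of 0.05. Each test set the difference between groups against a spread between rats estimated from the 3 groups together, with 4 rats per group. CPM are counts relative to the TMM-scaled library size. Antagonist shares were compared by two-sided exact permutation tests (scipy 1.17.1, Python 3.11.15), adjusted over 15 tests, whose smallest possible p is 0.0286. Figures used matplotlib 3.10.9. Alternatives were DESeq2 1.42.0, its size factors in edgeR, TMM without mitochondrial genes, 2 other count filters, fits of the 2 compared groups only, rat 66 counted in MI, and each rat left out. Leaving out rats 36 and 58 together was added after seeing the data.

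Named were members past the threshold against Sham, those with an unadjusted p under 0.05 between MI + UA and MI, the 2 highest by mean CPM in each role, and up to 8 genes of each other list by smallest adjusted p. The members and lists were chosen with earlier results of these data known. Promoter sequences and overlapping genes are from RefSeq (GRCr8), whose coordinates were not mixed with those of mRatBN7.2. Gene lengths were not used. The choice of the 2 highest by mean CPM and the shares of summed counts therefore depend on transcript length. Tests compared rats and not genes.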

Additional observations from a re-analysis of the deposited data

Results flagged for a closer look

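Of 105 sets of 4 rats examined, 1 held a rat far from the other 3, where chance gives about 1 in 20. The summed adipocyte markers were at 3.51 CPM in MI rat 36 and at 0 to 0.326 CPM in the other MI rats, and the gap to the nearest rat was 0.907 of the whole range.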

How the results depend on the processing

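The number of members past the threshold in MI versus Sham was 9 under each alternative with all 12 rats and 6 to 9 with 1 rat left out (6 without Sham rat 12 or MI rat 89). In MI + UA versus Sham it was 7 to 10, and in MI + UA versus MI it was 0 in all settings run. Counting the joint omission of rats 36 and 58 among the leave-outs, other pathway genes past the threshold in MI versus Sham numbered 6 to 14 (6 without Sham rat 32 or 38), targets 4 to 8 (4 without Sham rat 38), and targets in MI + UA versus Sham 3 to 7 (3 without rat 58, alone or with rat 36). Some estimates changed sign. Moving rat 66 into MI gave log2 fold changes between MI + UA and MI of Fzd2 0.1711, Fzd8 0.01594, Lrp6 -0.009764, Rspo1 0.000579, Sfrp1 0.002944 and Wnt5b 0.1216, those against Sham were Axin1 0.01382 and Fzd4 0.01903, and the Dkk3 share differed by -0.4218 points between MI + UA and MI. Dkk3 in MI + UA versus MI was -0.002446 under filterByExpr and -0.001775 with only the 2 groups fitted. Without Dkk3 in the sum, the Sfrp1 share differed from Sham by -9.148 points in MI and -10.28 in MI + UA. Over the leave-outs, log2 fold changes between MI + UA and MI ranged from -0.05172 to 0.04919 for Dkk3, -0.2348 to 0.06111 for Fzd2, -0.01628 to 0.1269 for Fzd7, -0.06254 to 0.06244 for Lrp5, -0.3332 to 0.0487 for Rspo1, -0.3136 to 0.05609 for Sfrp1, -0.3122 to 0.02263 for Sfrp2, -0.2526 to 1.378 for Sfrp4, -0.02513 to 0.04821 for Tcf7l1, -0.3904 to 0.003461 for Wnt2b, -0.1011 to 0.09247 for Wnt5a and -0.6736 to 0.3787 for Wnt5b. Between MI + UA and Sham they ranged from -0.1698 to 0.04242 for Axin1, -0.1193 to 0.02441 for Fzd4, -0.1024 to 0.4665 for Rspo1 and -0.137 to 0.1833 for Wnt2b. The shares in MI + UA versus MI differed by -2.238 to 2.998 points for Dkk3, -1.392 to 0.5638 for Sfrp1 and -3.385 to 0.3594 for Sfrp2. The causes were not tested. No paired analysis was possible because the groups share no rat numbers. Members with few counts, such as Wnt5b and the R-spondins, are limited by depth.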
